A study of Mus musculus with 2 samples.

Results

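Integrin and laminin subunits, the 2 chains of the cell surface receptors for matrix and the 3 chains of the main scaffold protein of basement membranes, were read in cells sorted for green fluorescent protein from adult Nestin-GFP transgenic mice (strain C57BL/6 per the labels, about 6 weeks of age). In this line GFP stands under regulatory elements of the gene for Nestin, an intermediate filament protein of neural stem cells, so a cell with strong GFP could be sorted, neural or not, and per the study's methods the gate for strong GFP was set with brain cells. The methods also say that transgenic lines were crossed in-house to wild-type mice, and give CD1 or a CD1 and C3H mixture as the wild-type background, so the strain of these mice is taken from the labels alone. GFP+ cells from brain gave 1 library and GFP+ cells from lung gave 1 library, both made by 3′ droplet sequencing. The study states 1 biological replicate for its maps of these cells, but whether that was 1 animal or a pool was not given in the sources used here. The members were all genes with a symbol of Itga or Itgb followed by digits only, Itgav, and all genes named Lama, Lamb or Lamc with one digit. There were 31 of them among the 25814 genes counted in either library: 12 integrin alpha and 8 integrin beta genes, 5 laminin alpha, 3 laminin beta and 3 laminin gamma genes. All 31 were counted in lung and 30 in brain, where Itgb6 had no count.

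An integrin is a pair of 1 alpha and 1 beta chain that crosses the membrane and couples matrix outside to actin or, for the pair with Itgb4, to intermediate filaments inside. Itga3, Itga6 and Itga7 make receptors for laminin, Itga1, Itga2, Itga10 and Itga11 for collagen, and Itga5, Itga8 and Itgav for ligands that carry the Arg-Gly-Asp motif, while Itga4 and Itga9 bind fibronectin, Vcam1 or tenascin, and Itgb2 is the beta chain of white blood cells. A laminin is a trimer of an alpha, a beta and a gamma chain that is laid down in basement membranes, the sheets that surround vessels, muscle, Schwann cells and epithelia, and in brain the vessel wall and the meninges.

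The libraries held 4640 barcodes with 26221173 UMIs (unique molecular identifiers, 1 for each captured transcript) in brain and 5981 barcodes with 36816962 UMIs in lung, and 15 barcode sequences occurred in both. After the filter on cells, 4151 brain cells with a median of 4209 UMIs and 5608 lung cells with a median of 5585 UMIs were kept. A cell entered a class when it had a UMI of at least 3 of the 10 markers of that class and led every other list by at least 2 markers. No marker was a member. In brain 92.8% and in lung 82.7% of the kept cells entered a class, and 18 classes had at least 30 cells. Cells of each class had a median of 4 to 10 of their own markers, with the fewest in lung epithelial-like (4) and lung smooth muscle-like and myofibroblast-like cells (5 each). In the lung smooth muscle-like class the next list, that of pericytes, had a median of 3 markers, and 271 of the 551 myofibroblast-like cells passed with a lead of exactly 2. No brain cell passed as smooth muscle-like, so the brain mural-like class (159 cells) was set beside the lung pericyte-like class (2665 cells).

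Levels are given as CPM, the summed UMIs of a gene in a class scaled to the same total for every class, with the exact 95% Poisson interval in brackets. Each molecule gave 1 tag near its 3′ end, so no length entered the levels, but genes may differ in how well they are captured. Each tissue was 1 library, so the intervals cover counting error only, no difference between mice can be read from them, and no test between groups was made. In a comparison a gene was called higher or lower where the ratio of CPM was at least 2 either way and its exact 95% conditional interval left out 1, among genes with at least 20 UMIs over both classes. A level at 0 UMIs was replaced by a floor of 3 UMIs and its ratio is then written as a bound.

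Of the 31 members, 24 reached 50 CPM in at least 1 class, and 7 (Itga2, Itga3, Itga10, Itga11, Itgb3, Itgb6 and Itgb7) did not. Their highest levels lay between 0.606 CPM for Itgb6 and 49.3 CPM for Itgb7. The highest level lay in a brain class for 12 of the 24 and in a lung class for 12. For Itga6, Itga7, Itgav, Itgb2 and Itgb4 the 2 highest classes came from different tissues and their intervals overlapped, so that tissue is not settled. Summed over all members, the level was 4683 CPM in lung pericyte-like and 4569 CPM in brain mural-like cells, the highest of the 18 classes, then 3580.3 CPM in lung Schwann-like cells (34 cells), and it was lowest in brain neuroblast-like (NB-like) cells with 214 CPM. A lung pericyte-like cell had UMIs of a median of 8 members and a brain mural-like cell of 7, against 3 in brain endothelial-like and 1 in NB-like cells, whose median depths were 5168, 2559, 3724 and 4459 UMIs.

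**Figure D1:**
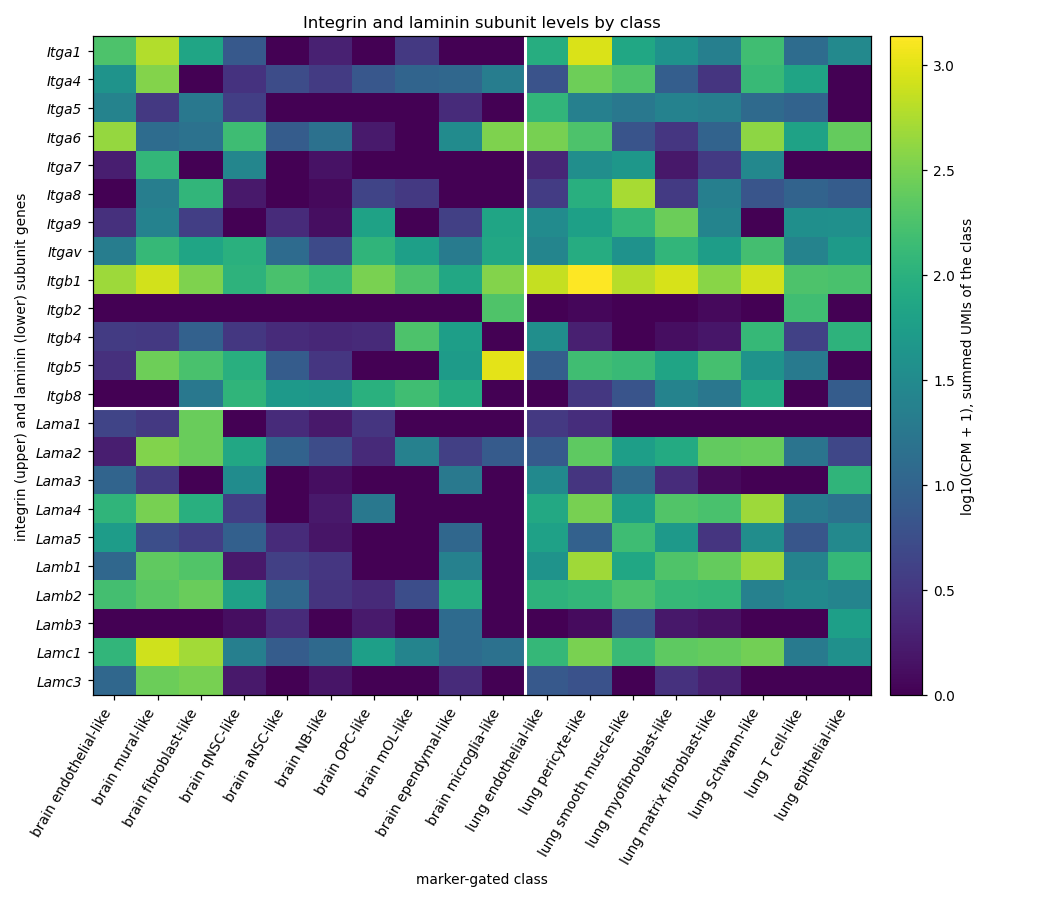
Levels of 23 of the members that reached 50 CPM in at least 1 class, as log10(CPM + 1) of the summed UMIs of each of the 18 classes, with brain classes left and lung classes right of the white line and integrins above and laminins below it. The Itgb1 row is filled in every class (74.0 to 1364 CPM), whereas Itgb2, Lama1 and Lamb3 are high in 1 or 2 columns.

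Among the receptors for collagen, Itga1 was the alpha chain with most UMIs in brain mural-like and lung pericyte-like cells. Its level was 913 CPM (897 to 929) in lung pericyte-like and 592 CPM (522 to 669.9) in brain mural-like cells, and the next classes were brain endothelial-like with 181 CPM (158 to 207) and lung Schwann-like with 147 CPM (95.8 to 215), whose intervals overlapped. Of the alpha chain UMIs, Itga1 made up 54.2% in lung pericyte-like and 46.7% in brain mural-like cells. Itga2, Itga10 and Itga11 stayed at or under 33.8 CPM in every class.

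Itga4 had the same first 2 classes in the opposite order. Its level was 357 CPM (303 to 418) in brain mural-like cells, 280.3 CPM (271 to 289) in lung pericyte-like cells, 185 CPM (127 to 259.6) in lung smooth muscle-like cells and 129.7 CPM (82.2 to 195) in Schwann-like cells. The first interval lay above the second, and the last 2 overlapped. Itga9, the close relative of Itga4 that binds tenascin, went elsewhere: lung myofibroblast-like cells had 271 CPM (253 to 289), lung smooth muscle-like cells 118 CPM (72.8 to 179.8), brain microglia-like cells 68.4 CPM (32.8 to 126) and brain oligodendrocyte progenitor-like (OPC-like) cells 63.0 CPM (50.8 to 77.3).

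Of the laminin receptors, Itga6 was high in endothelial cells of both tissues, with 438 CPM (401 to 478) in brain and 313 CPM (294 to 332) in lung. Schwann-like cells had 395 CPM (308 to 499), brain microglia-like cells 335 CPM (248 to 443) and quiescent neural stem cell-like (qNSC-like) cells 146 CPM (133 to 160.4). The 2 mural classes stood apart here, with 183 CPM (176 to 190.3) in lung pericyte-like but 11.7 CPM (3.79 to 27.2) in brain mural-like cells, the latter from 5 UMIs. Itga7, the laminin receptor chain of muscle, was highest in brain mural-like cells at 117 CPM (86.6 to 154), an interval that overlapped that of lung smooth muscle-like cells at 44.8 CPM (19.4 to 88.3).

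Among the receptors for Arg-Gly-Asp ligands, Itga5, the fibronectin receptor chain, was an endothelial gene in lung, with 116 CPM (105 to 128), and the next class was brain endothelial-like with 24.6 CPM (16.5 to 35.4). Itga8, which binds nephronectin, reached 532 CPM (431 to 651) in the 31 lung smooth muscle-like cells. Brain fibroblast-like cells followed with 114 CPM (81.3 to 155) and lung pericyte-like cells with 93.8 CPM (88.7 to 99.2), and these 2 overlapped. Itgav was more even, from 158 CPM (105 to 228) in Schwann-like to 4.02 CPM in NB-like cells, and the intervals of its 4 highest classes, which also held brain mural-like, lung myofibroblast-like and OPC-like cells, overlapped.

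Itgb1, the partner of most alpha chains, was the beta chain with most UMIs except in qNSC-like, mOL-like, ependymal-like and microglia-like cells. Its level went from 74.0 CPM (55.1 to 97.3) in ependymal-like to 1364 CPM (1344 to 1384) in lung pericyte-like cells. It made up 98.9% of beta chain UMIs in brain endothelial-like and 94.2% in lung endothelial-like cells, but 33.6% in qNSC-like cells, where Itgb8 made up 35.2% and Itgb5 30.2%. It made up 35.3% in mOL-like cells beside 35.7% of Itgb4, 27.7% in ependymal-like cells beside 31.0% of Itgb8, and 22.2% in microglia-like cells beside 64.1% of Itgb5. Itgb5 was highest in microglia-like cells with 1027 CPM (869 to 1205), and came next in brain mural-like cells with 278 CPM (229.9 to 332). Itgb8, the partner of Itgav that activates TGF-beta, was highest in neural classes of brain: mature oligodendrocyte-like (mOL-like) cells had 147 CPM (113 to 187), qNSC-like 111 CPM (99.3 to 123), OPC-like 98.0 CPM (82.6 to 115) and ependymal-like cells 82.7 CPM (62.6 to 107), each overlapping the next. Neither endothelial class had a UMI of it, which allows up to 2.55 CPM in brain and 0.880 CPM in lung.

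Itgb4, the partner of Itga6 in hemidesmosomes, was highest in mOL-like cells with 181 CPM (143 to 226), then in Schwann-like cells with 124 CPM (77.7 to 188) and lung epithelial-like cells with 104 CPM (69.9 to 149.9), 3 overlapping intervals. In mOL-like cells Itga6 itself had no UMI (at most 6.87 CPM), and the alpha chain with most UMIs was Itgav with 78.1% of 32 UMIs. In Schwann-like and epithelial-like cells Itga6 was the leading alpha chain, with 43.5% and 60.7%.

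The laminin alpha chains split the classes. Lama2 and Lama4, the chains of muscle, nerve and vessel basement membranes, made up 52.1% and 46.5% of alpha chain UMIs in brain mural-like and 41.2% and 56.6% in lung pericyte-like cells. In endothelial cells Lama2 made up 0.478% in brain and 3.82% in lung, and Lama5 29.7% and 34.7%, beside Lama4 with 62.7% and 43.2%. In lung smooth muscle-like cells Lama5 was the leading chain with 54.2% (39.2 to 68.6) of 48 UMIs. Lama1, the chain of early embryonic and meningeal basement membranes, was at 264 CPM (213 to 324) in brain fibroblast-like cells, where it made up 42.7% of alpha chain UMIs, and at no more than 3.40 CPM in every other class. Lama3, an epithelial chain, stood at 112 CPM (75.8 to 158) in lung epithelial-like cells, and at 32.8 CPM (26.8 to 39.7) in qNSC-like and 29.9 CPM (24.4 to 36.3) in lung endothelial-like cells.

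Of the beta chains, Lamb2 led in both endothelial classes (94.0% in brain, 72.2% in lung) and in qNSC-like cells (98.5%), whereas Lamb1 led in lung pericyte-like (80.4%) and Schwann-like cells (95.6%). In brain mural-like cells the 2 chains were level, with 51.8% (44.5 to 59.1) for Lamb1. Lamb1 had 485 CPM in both Schwann-like (388 to 599) and lung pericyte-like cells (473 to 497). Lamc1, the common gamma chain, reached 812 CPM (729 to 902) in brain mural-like, 498 CPM (427 to 577) in brain fibroblast-like and 321 CPM (311 to 331) in lung pericyte-like cells. Lamc3 was at 313 CPM (257 to 377) and 271 CPM (224 to 324) in the fibroblast-like and mural-like cells of brain, 2 overlapping levels, and at or under 10.2 CPM in all other classes. Lamb3, a partner of Lama3 in epithelial basement membrane, was highest in lung epithelial-like cells with 57.6 CPM (32.9 to 93.5), and no other class had more than 11.6 CPM.

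**Figure D2:**
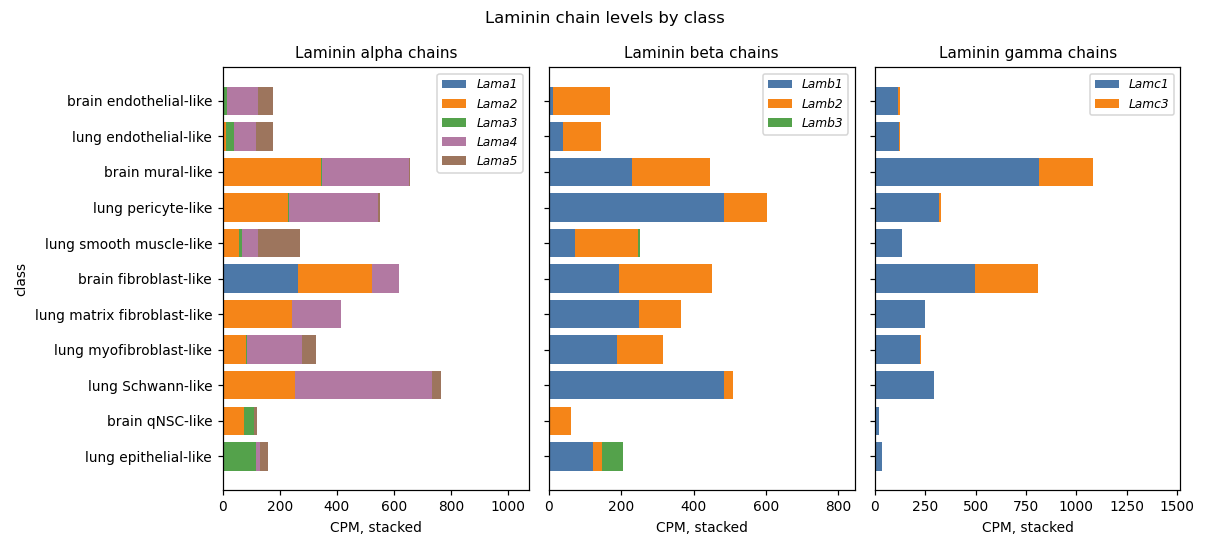
Stacked levels (CPM, summed UMIs) of 10 laminin alpha, beta and gamma chain genes in 11 classes. Lama1 and Lamc3 are seen as wide blocks in brain fibroblast-like cells (264 and 313 CPM) and Lamc3 also in brain mural-like cells (271 CPM), and Lama3 and Lamb3 in lung epithelial-like cells.

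The stretches upstream of 4 members are shown. Each had 1 window that did not reach into the annotated gene, and each differed between the 2 sides of the vessel wall. Itga1, Itga4 and Itgb5 were lower in endothelial than in mural or pericyte cells of both tissues, and Itga5 was higher, in brain on 1 mural UMI. Other members with such directions in both tissues, such as Lama2 and Lama5, are not shown. Each line gives the 250 bases before the start of the gene, 5′ to 3′ on its own strand, from RefSeq (GRCm38.p6), at chr13:115101965-115102214 on the minus strand for Itga1, chr2:79255176-79255425 on the plus strand for Itga4, chr16:33829415-33829664 on the plus strand for Itgb5 and chr15:103366792-103367041 on the minus strand for Itga5. Capitals mark the GC box GGGCGG or its reverse complement CCGCCC, and the CCAAT box (CCAAT or ATTGG) and TATA box (TATAAA or TTTATA) were searched in the same way without a match in these 4.
Itga1: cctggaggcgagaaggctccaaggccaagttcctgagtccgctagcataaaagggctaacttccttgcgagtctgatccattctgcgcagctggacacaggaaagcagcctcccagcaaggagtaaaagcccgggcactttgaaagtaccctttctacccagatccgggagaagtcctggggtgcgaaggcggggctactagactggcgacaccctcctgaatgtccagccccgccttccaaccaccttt
Itga4: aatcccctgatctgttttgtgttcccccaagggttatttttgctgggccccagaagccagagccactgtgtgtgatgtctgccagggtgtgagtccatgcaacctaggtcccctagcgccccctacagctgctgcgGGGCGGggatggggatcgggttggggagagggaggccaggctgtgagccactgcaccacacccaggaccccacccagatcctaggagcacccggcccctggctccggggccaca
Itgb5: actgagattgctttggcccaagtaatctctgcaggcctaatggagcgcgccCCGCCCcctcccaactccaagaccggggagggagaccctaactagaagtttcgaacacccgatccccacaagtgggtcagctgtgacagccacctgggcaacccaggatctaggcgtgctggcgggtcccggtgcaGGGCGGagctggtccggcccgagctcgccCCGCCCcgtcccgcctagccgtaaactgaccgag
Itga5: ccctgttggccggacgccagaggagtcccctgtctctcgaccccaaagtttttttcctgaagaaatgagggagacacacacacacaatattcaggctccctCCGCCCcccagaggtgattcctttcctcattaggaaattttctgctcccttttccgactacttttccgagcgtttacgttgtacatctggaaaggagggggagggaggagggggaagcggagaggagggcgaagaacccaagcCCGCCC
The GC box was matched 3 times before Itgb5, 2 times before Itga5, once before Itga4 and not before Itga1, and it occurred in 32.7% of all 32851 windows of this length. It was found in genes of both kinds. A CCAAT box occurred in 33.8% and a TATA box in 12.4% of all windows. A window was at hand for 20 of the 31 members, and 7 of these 20 had a GC box, 3 a CCAAT box and none a TATA box. Of the genes that differed most between the tissues, Itga6 lies at chr2:71786886-71858427, Lama1 at chr17:67697127-67822645 and Lamc3 at chr2:31887281-31949083 in the same build.

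The first comparison across tissues set the endothelial-like cells of lung (602 cells) against those of brain (312 cells). Of the 19 members tested, 10 were called (8 higher and 2 lower in lung), against 23.4% of the 10462 genes tested (13.0% higher and 10.3% lower). The median log2 ratio was 0.32 over the members and 0.03 over all genes. Itga5 was 4.70-fold higher in lung (3.22 to 7.11), Itgb4 13.3-fold (4.45 to 65.7, from 116 and 3 UMIs), Itga9 18.3-fold (4.94 to 153, from 106 and 2 UMIs) and Lama3 3.20-fold (1.72 to 6.61). Itga4 was 7.57-fold lower (4.31 to 13.8) and Itga1 2.01-fold lower (1.68 to 2.40). Itga2, named after its values were seen, had 106 UMIs in lung and none in brain, which makes it at least 12.2-fold higher in lung.

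The chains that led in endothelial cells did not reach 2-fold between the tissues. The lung over brain ratio was 0.714 for Itga6 (0.642 to 0.794), 1.54 for Itgb1, 0.685 for Lama4 (0.553 to 0.852), 1.16 for Lama5 (0.872 to 1.57), 0.655 for Lamb2 (0.547 to 0.786) and 1.06 for Lamc1 (0.870 to 1.30). The calls of Itgb5 (4.49-fold higher), Lama2 (7.94-fold) and Lamb1 (3.94-fold) rested on 2, 1 and 12 UMIs in brain. Apart from a minimum of 50 UMIs, the call of Itgb5 ended when the gate asked for a lead of 1 marker (3.04). That of Lama2 ended with called doublets removed (6.35). In another alternative a fixed 10% of the counts of each class was taken off in the mean profile of its library, as free RNA might be. This share was not estimated from the data. Itgb5 and Lama2 were then left with no UMI in either class, so that they have no ratio. The ratio of Lamb1 was 0.913, and the split over all members was 5 higher and 3 lower. The call of Itga1, whose ratio was 0.497, ended under 5 alternatives other than a higher fold, at 0.504 to 0.614, and its ratio was 0.274 with free RNA taken off. The ratio of Itga4 moved from 0.132 to 0.306 with classes from clusters and to a bound of at most 0.0231 with free RNA taken off. Among the other lists, the collagens of basement membrane Col15a1 and Col18a1 were higher in lung (54.9-fold from 159 and 1 UMIs, and 5.23-fold, 3.52 to 8.11), and Fn1, the gene for fibronectin, was 2.84-fold lower, with 338 against 961 CPM.

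The lung pericyte-like over brain mural-like comparison called 9 of 22 tested members (5 higher, 4 lower), against 21.8% of 12447 genes (9.92% higher, 11.8% lower), with median log2 ratios of -0.39 and -0.14. The largest differences were in the laminin gamma chain and a laminin receptor: Lamc3 was 52.9-fold lower in lung (38.9 to 72.4, 5.12 against 271 CPM) and Itga6 15.7-fold higher (6.71 to 48.4). Lamb1 was 2.10-fold higher (1.72 to 2.59), Itga8 4.47-fold (2.35 to 9.80), Itga9 2.54-fold (1.37 to 5.31) and Itga5 9.58-fold (1.71 to 379.7, on 1 UMI in brain). Lamc1 was 2.53-fold lower (2.26 to 2.82) and Itga7 3.34-fold lower (2.44 to 4.48). The ratio of Itga6 became 37.0 with free RNA taken off at that fixed share. Itga1, Itga4, Itgb1, Lama2 and Lama4 had lung over brain ratios of 0.665 to 1.64, none called, and the interval of Lama4 (0.861 to 1.23) held 1.

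Other matrix genes also differed here. Vtn, the gene for vitronectin, a ligand of the pairs Itgav makes with Itgb3 and Itgb5, was at 188 CPM in lung pericyte-like and 23109.80 CPM in brain mural-like cells, 123-fold lower in lung. Npnt, a ligand of Itga8, had 3672 UMIs in lung and none in brain, at least 39.5-fold higher. The collagen chains Col4a1 and Col4a2 were 2.51-fold (2.33 to 2.71) and 2.48-fold (2.24 to 2.76) higher in lung. Of the list of 8 basement membrane partners 4 were higher and none lower, and of the 8 tested adhesion adaptors 3 were higher and 1 lower, beside 9.92% higher and 11.8% lower of all genes.

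For lung matrix fibroblast-like (615 cells) over brain fibroblast-like cells (60 cells), 7 of 18 tested members were called (1 higher, 6 lower), against 21.4% of 10789 genes (9.53% higher, 11.9% lower), with median log2 ratios of -0.21 and -0.09. Laminin genes made up 4 of the 6 lower members. Lama1 had 93 UMIs in brain and none in lung, which makes it at least 467-fold lower, Lamc3 was 332-fold lower (138 to 1042, from 5 UMIs in lung), Lamb2 2.20-fold (1.74 to 2.74) and Lamc1 stood at 248 against 498 CPM. Itga8 was 5.34-fold lower (3.62 to 7.72) and Itga1 3.20-fold lower (1.97 to 5.01). Lama2, Lamb1, Itgb1, Itgb5 and Itgav lay between 0.804 and 1.28, uncalled.

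The ratio of Itga8 moved from 0.187 to 0.290 with classes from clusters and to 0.303 with the mean of single-cell CPM. Of these calls, that of Itga1 (0.312) ended with classes from clusters (0.725), whereas taking off free RNA left a bound of at most 0.00871, that of Lamc3 (0.00301) held at 0.00491 and 0.00182 under the same pair of alternatives, that of Lamb2 ended under the median of ratios (0.526), and that of Lamc1 (0.499) under 5 alternatives other than a higher fold (0.502 to 0.577). The ratio of Itga9, 8.76 on 1 brain UMI, was no longer called after free RNA was taken off (5.55) and lay at 3.82 without an upper limit on genes per cell and at 15.7 with the mean of single-cell CPM. Members split 2 higher and 4 lower under the median of ratios and 2 and 5 with the mean of single-cell CPM. The matrix ligands were set differently as well: Fn1 was 14.3-fold higher in lung (9.96 to 21.4), and Vtn was at 3.77 CPM in lung against 6523 CPM in brain.

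**Figure D3:**
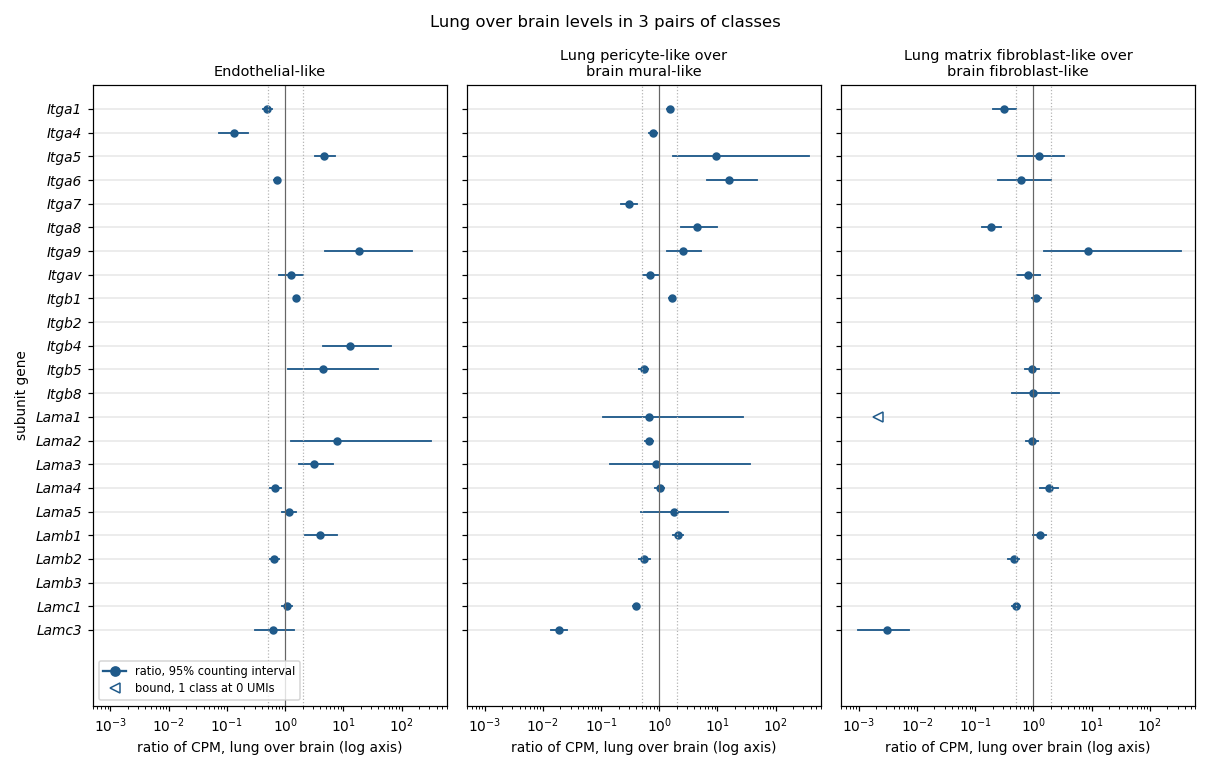
Ratio of CPM of lung over brain (log axis) for the named members in 3 pairs of classes, with lines for the 95% counting interval, dotted lines at 2-fold and open triangles for bounds; genes not tested have no mark. Lamc3 lies far to the left in the mural and fibroblast panels (52.9-fold and 332-fold lower in lung) and has an interval across 1 in the endothelial panel (0.633).

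Within each tissue the 2 cell types of the vessel wall were then compared. Brain endothelial-like over mural-like cells called 14 of 16 tested members (4 higher, 10 lower), against 30.6% of 8481 genes (17.3% higher, 13.4% lower), and lung endothelial-like over pericyte-like cells called 20 of 26 (7 higher, 13 lower), against 30.2% of 13056 genes (13.5% higher, 16.7% lower). The median log2 ratio of the members was -2.15 in brain and -1.14 in lung, beside 0.03 and -0.04 over all genes.

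On the endothelial side stood Itga5, 10.6-fold higher in brain (1.75 to 432, on 1 mural UMI) and 5.18-fold in lung (4.45 to 6.05), and Lama5, 11.3-fold (3.00 to 95.3) and 7.34-fold (5.80 to 9.33). Itga6 was 37.6-fold higher in brain (16.0 to 116), but 1.71-fold in lung (1.59 to 1.84), which was not called. In lung Itgb4 was 37.7-fold (20.8 to 75.0) and Lama3 14.7-fold higher (9.56 to 23.4).

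On the mural side, Itga1 was 3.27-fold (2.72 to 3.95) and 10.1-fold (9.05 to 11.4) lower in endothelial cells of brain and lung, and Itga4 8.93-fold (6.40 to 12.7) and 53.1-fold (33.6 to 89.7). Itgb5 was 163-fold lower (44.2 to 1364) and 19.6-fold lower, with 2 and 26 UMIs left in endothelial cells. Lama2 was 403-fold lower in brain (on 1 endothelial UMI) and 33.8-fold in lung (22.5 to 53.4), Lamb1 22.6-fold (12.4 to 45.3) and 12.1-fold (10.2 to 14.4), and Lamc1 7.07-fold (5.78 to 8.70) and 2.64-fold (2.39 to 2.93). Lamb2 was near level, at a ratio of 0.741 (0.574 to 0.961) in brain and 0.883 (0.784 to 0.991) in lung.

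The few UMIs that endothelial cells held of mural genes can be set beside those of an abundant secreted product. Vtn, at 23109.80 CPM in brain mural-like cells, was at 90.9 CPM in brain endothelial-like and 8.77 CPM in NB-like cells, 0.00393 times its mural level in the former. Itgb5 and Lama2 were at 0.00612 and 0.00248 times their mural level in brain endothelial-like cells, and the part of free RNA in these few UMIs was not tested. Taking 10% off in the mean profile of the library moved the ratios in brain from 37.6 to 92.5 for Itga6 and in lung from 37.7 to 147 for Itgb4. It left no UMI of Itga4 and Itgb5 in lung endothelial-like cells, so that their ratios of 0.0188 and 0.0511 became bounds of at most 0.00327 and 0.00633. In lung it moved Lamb1 from 0.0829 to 0.0187 and Itga1 from 0.0987 to 0.0556, and Lama2 from 0.0296 to at most 0.00414. These 7 kept their calls, while Itgb8 lost its call in lung (bounds of 0.390 and 0.684). With classes from clusters Itga4 in lung was at 0.0454 and Itgb5 and Lama2 in brain at 0.0119 and 0.00485, and with no upper limit on genes per cell Itgb5 and Lama2 in lung were at 0.0770 and 0.0468. With classes from clusters Lama5 was 4.75-fold higher in brain endothelial-like cells. Among the partners, Nid1, which links laminin to collagen, was 10.3-fold lower in brain and 5.26-fold lower in lung endothelial-like cells, and Fn1 was 14.2-fold (9.84 to 21.3) and 2.97-fold (2.75 to 3.21) higher.

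**Figure D4:**
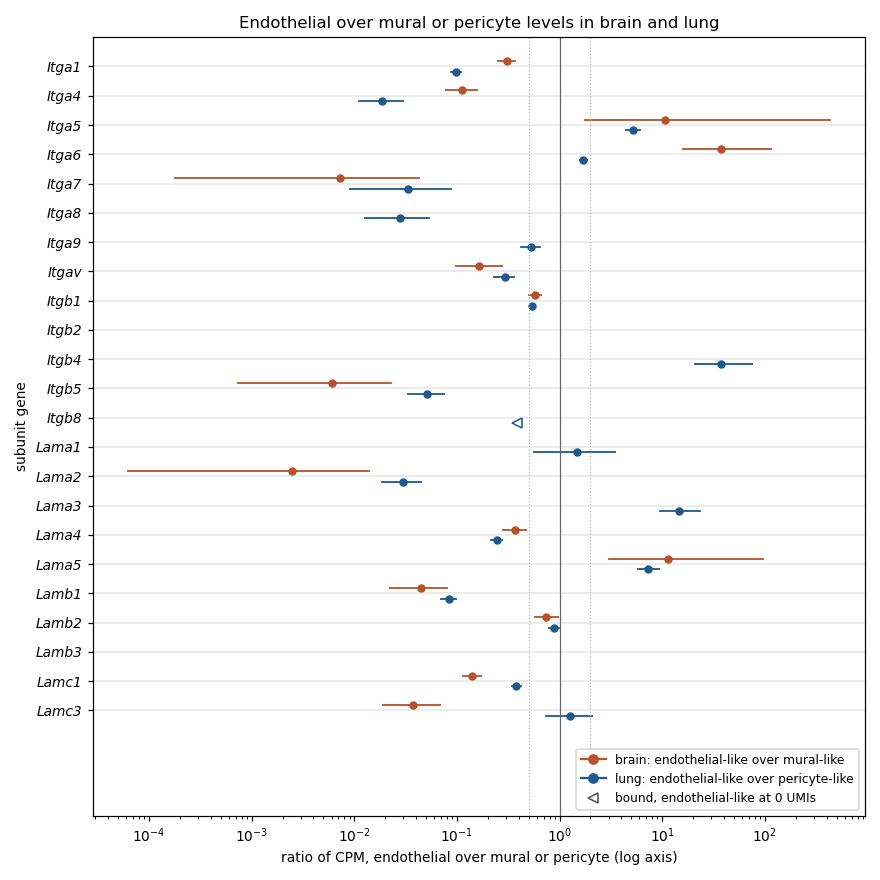
Ratio of CPM of endothelial-like over mural-like (brain) or pericyte-like cells (lung) on a log axis, with 95% counting intervals, dotted lines at 2-fold and an open triangle for a bound. Itga5 and Lama5 lie to the right of 1 and Itga1, Itga4, Itgb5, Lama2, Lamb1 and Lamc1 to the left of it in both tissues, and Itga6 is at 37.6 in brain and 1.71 in lung.

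The mesenchymal classes of lung were compared with the pericyte-like cells and with each other. Myofibroblast-like over pericyte-like cells called 14 of 22 tested members (3 higher, 11 lower), against 21.3% of 12823 genes (10.1% higher, 11.2% lower), with median log2 ratios of -0.95 and -0.02. The 3 higher members were Itga9, 4.58-fold (4.16 to 5.05), Itgb8, 10.6-fold (6.88 to 16.7), and Lama5, 5.84-fold (4.56 to 7.51). Itga6 was 86.2-fold lower (41.8 to 215), Itga8 38.7-fold (19.6 to 89.9), Itga4 37.0-fold and Itga1 23.5-fold (19.8 to 28.2), whereas Itgav (1.31) and Itgb1 (0.641) were not called. Tnc, the gene for tenascin, a ligand of Itga9, was 16.8-fold higher in the myofibroblast-like cells (15.4 to 18.2), at 896 against 53.5 CPM. The sizes of these 4 lower ratios depended on the settings, while their calls did not: with free RNA taken off no UMI was left in myofibroblast-like cells, and the ratios of Itga6 (0.0116), Itga8 (0.0258), Itga4 (0.0270) and Itga1 (0.0425) became bounds of at most 0.00531, 0.0103, 0.00339 and 0.00104, whereas classes from clusters gave 0.0209 for Itga6 and 0.0402 for Itga8. With a fold of at least 3 the count of members was 8.

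Matrix fibroblast-like over myofibroblast-like cells called 10 of 18 (5 higher, 5 lower), against 23.8% of 11668 genes (9.86% higher, 13.9% lower), with median log2 ratios of -0.14 and -0.29. Itga9 was 10.9-fold lower (9.05 to 13.2) and Lama5 23.5-fold lower (12.8 to 48.0) in matrix fibroblast-like cells, and Itgb1 2.33-fold (2.20 to 2.47). Itga8 was 8.79-fold higher (4.31 to 20.9), Lama2 2.96-fold (2.60 to 3.39) and Itgb5 2.44-fold (2.10 to 2.84), and Lama4, Lamb1, Lamb2 and Lamc1 lay between 0.884 and 1.32. The call of Itga6 (4.18-fold higher, from 47 and 7 UMIs) and that of Itga4 could not be made after free RNA was taken off, which left no UMI in either class, that of Itga4 also ended with clusters (0.958), that of Itgav under the median of ratios (0.600) and the mean of single-cell CPM (0.527), and that of Itgb1 under the median of ratios (0.535), where the split was 5 higher and 3 lower. The ratio of Lama5 moved from 0.0425 to at most 0.0123 with free RNA taken off and to 0.0952 with clusters, that of Itga9 from 0.0919 to 0.0599 and that of Itga8 from 8.79 to at least 17.6 with free RNA taken off. The median ratio of genes between these 2 classes was itself 0.800.

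Lung smooth muscle-like (31 cells) over pericyte-like cells called 11 of 22 members (3 higher, 8 lower), against 15.0% of 12361 genes (6.40% higher, 8.60% lower), with median log2 ratios of 0.10 and 0.08. The split was 6 higher and 5 lower when the gate asked for a lead of 1 marker, and 8 and 7 with the mean of single-cell CPM. Lama5 was 17.4-fold (10.9 to 26.9) and Itga8 5.67-fold (4.56 to 6.99) higher, and Itga1 was 12.5-fold (7.33 to 23.5), Lamb1 6.66-fold (3.89 to 12.5) and Lama4 5.59-fold (3.04 to 11.7) lower. Itga4 (0.660) and Itga7 (1.28, 0.551 to 2.55) were not called. Itga6 had 1 UMI in smooth muscle-like cells, and its ratio of 0.0306 lay between 0.0188 and 0.181 under other settings, bounds included. Calls of Itgav, Itgb1 and Lamc1 ended with that gate (0.691, 0.548 and 0.501). Lama4 kept its call, moving from 0.179 to 0.288 with that gate and to 0.115 with free RNA taken off, which also moved Itga1 from 0.0798 to 0.0383 and Lamb1 from 0.150 to 0.0858.

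Members also varied inside classes, over clusters that were built without the members and the listed matrix genes. Over the 8 clusters of the lung pericyte-like cells with at least 30 cells, Itga7 went from 6.39 to 218 CPM, Itga9 from 7.73 to 207 CPM and Itga4 from 38.6 to 528 CPM, while Itgb1 went from 727 to 1497 CPM and Lamc1 from 247 to 417 CPM. These 3 alpha chains spread more than the common beta and gamma chains did, with folds of 34.2, 26.7 and 13.7 against 2.06 and 1.69. A cluster of 57 cells had the highest Itga9 and Itgb8 and the lowest Itga1, Itga6, Itga7 and Itga8, the directions of myofibroblast-like over pericyte-like cells. A cluster of 108 cells had the highest Itga7 and Lama5 and the lowest Lama4, Lamb1 and Itga9. Smooth muscle-like cells shared the Lama5, Lama4 and Lamb1 directions, but had 118 CPM of Itga9. Whether these clusters hold cells of those classes was not tested. Inside lung endothelial-like cells, Itgb4 and Lama3 were both lowest in a cluster of 270 cells (8.97 and 9.57 CPM) and highest in a cluster of 254 cells (61.0 and 54.2 CPM). Inside qNSC-like cells, Itga6 (20.9 to 251 CPM) and Lama2 (10.5 to 169.6 CPM) were both lowest in a cluster of 42 cells and highest in one of 164 cells, and inside OPC-like cells Itga9 (8.88 to 132 CPM) and Itgb8 (18.6 to 257 CPM) were highest in the same cluster of 112 cells. The lowest values printed here rest on 1 to 20 UMIs for all genes apart from Itgb1 and Lamc1.

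**Figure D5:**
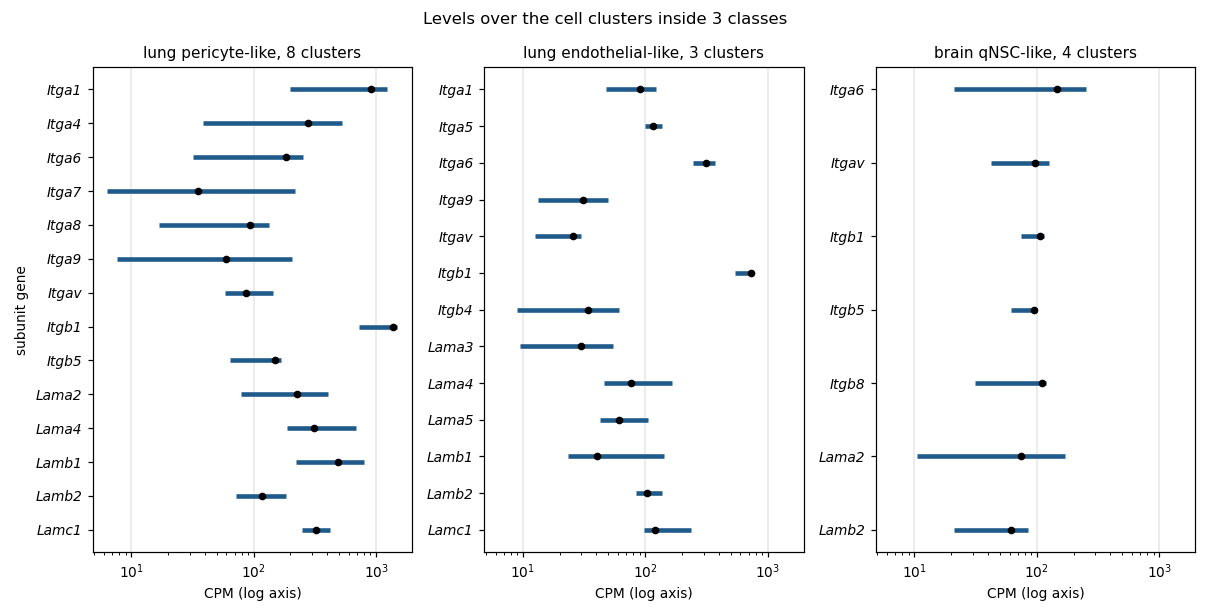
Range of CPM (log axis) over the cell clusters of at least 30 cells inside the lung pericyte-like, lung endothelial-like and brain qNSC-like classes, for members of at least 25 CPM in the class and above 0 in every cluster, with a black point for the whole class. In pericyte-like cells the bars of Itga7 (6.39 to 218) and Itga9 (7.73 to 207) are the longest, and that of Lamc1 (247 to 417) is the shortest.

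In the neural classes of brain, NB-like (1979 cells) over qNSC-like cells (813 cells) called 10 of 14 tested members, all lower, against 48.9% of 13442 genes (3360 genes higher, 23.9% lower), with median log2 ratios of -3.70 and 0.21. Itgb5 was 43.8-fold lower in NB-like cells (28.1 to 71.7), Itgav 24.3-fold (17.4 to 34.8), Itga6 10.7-fold (8.79 to 13.0), Lama2 17.2-fold (12.4 to 24.5), Lamb2 31.2-fold (19.4 to 52.9) and Lama3 106-fold (35.2 to 522, on 3 UMIs). Itgb8 was 2.56-fold lower (2.22 to 2.96), and Itgb1 was level at 1.14 (1.01 to 1.29). Taking counts off as free RNA at the fixed share moved the ratio of Itgav from 0.0412 to 0.00440. It moved that of Itgb5 from 0.0229 to a bound of at most 0.00340, with no UMI left in NB-like cells. It also moved Itga6 from 0.0937 to 0.0523, Lama2 from 0.0580 to 0.0201 and Lamb2 from 0.0321 to at most 0.00537, and Lama3, at 0.00945, was at 0.00269 with classes from clusters. With the mean of single-cell CPM 1 member was called higher and 10 lower. In NB-like cells Itgb1 made up 71.7% of beta chain UMIs. The laminin receptor Dag1, dystroglycan, was 6.53-fold lower as well, and Vcam1, a ligand of Itga4 and a marker of quiescent stem cells, 82.0-fold lower.

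For mOL-like (47 cells) over OPC-like cells (265 cells), 8 members could be tested and 5 were called (1 higher, 4 lower), against 40.8% of 9078 genes (8.18% higher, 32.6% lower), with median log2 ratios of -1.08 and -0.73. Itgb4 was 132-fold higher in mOL-like cells, with 79 UMIs against 2 (35.4 to 1109.6), and 80.0-fold to 262-fold under other settings. Itga9 was at least 9.17-fold lower, Lama4 at least 2.49-fold lower and Itgb7, named after its values were seen, at least 7.18-fold lower, each with no UMI in mOL-like cells. Itgav, Itgb1 and Itgb8, at ratios of 0.513 and 0.556 for the first 2, were not called. The split was 3 higher and 4 lower without the upper limit on genes per cell, where the mOL-like class held 79 cells, and 1 and 6 with the mean of single-cell CPM. With a fold of at least 3 the count was 3.

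The last comparison set lung Schwann-like cells, gated on glial genes such as Sox10 and Cdh19, against brain qNSC-like cells, since the study asked whether neural stem cells are found outside the central nervous system. It called 12 of 16 tested members (10 higher, 2 lower), against 26.3% of 10727 genes (14.7% higher, 11.6% lower), with median log2 ratios of 1.91 and 0.10. Lamb1 had 86 UMIs in 34 cells against 2 in 813 (769.7-fold, 207 to 6458), Lama4 was 169-fold, Itga4 68.6-fold (27.2 to 206), Itgb4 56.3-fold (23.2 to 156), Itga1 22.2-fold and Lamc1 13.7-fold (9.35 to 19.9) higher. Itgb5 was 2.40-fold (1.15 to 6.03) and Lamb2 2.71-fold (1.04 to 10.0) lower, the latter from 4 UMIs and not called with classes from clusters (0.490) or the mean of single-cell CPM (0.543), and Itgb8 (0.714, 0.386 to 1.21) and Itgav (1.62, 1.06 to 2.38) were not called.

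All 8 basement membrane partners were higher in Schwann-like cells, beside 14.7% of all genes, among them Nid1 at 654 against 2.52 CPM and Col18a1 at 688 against 0.63 CPM. In this pair the median of gene ratios was 1.77 (0.83 on the log2 scale), and the ratio of Lamb1 lay between 188 and 1221 over the alternatives. Relative to that median the calls of Itga6, Lama2 and Lama5 ended, at 1.52, 1.92 and 2.33, which left 7 higher and 4 lower, whereas Lamb1 (434), Lama4 (95.4), Itga4 (38.7), Itgb4 (31.7), Itga1 (12.5) and Lamc1 (7.72) kept theirs. With free RNA taken off the ratio was 479 for Lama4, 373 for Itga4 and 97.6 for Itgb4. In the other pairs the same shift ran from -0.32 for matrix fibroblast-like over myofibroblast-like cells to 0.17 for smooth muscle-like over pericyte-like cells on the log2 scale. Tissue and library cannot be told apart in any comparison of lung with brain.

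The genes that act with the members were counted by the same rule. Of the 11 adhesion adaptors, which tie integrins to actin, 9 could be tested in lung endothelial-like over pericyte-like cells, where 1 was higher (Fermt3, kindlin of blood cells, 67.2-fold) and 6 were lower (Fermt2 5.53-fold), beside 13.5% and 16.7% of all genes. In Schwann-like over qNSC-like cells 6 of 8 were higher, beside 14.7% of all genes, and in NB-like over qNSC-like cells 4 of 8 were lower, beside 23.9%, with Vcl, the gene for vinculin, 23.2-fold lower. Of the 3 laminin receptors that are not integrins, Bcam, which binds Lama5, was 3.78-fold higher in lung endothelial-like than in pericyte-like cells and 3.04-fold lower in lung pericyte-like than in brain mural-like cells.

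Among the 8 basement membrane partners, 7 were lower and 1 was higher in lung myofibroblast-like than in pericyte-like cells (Nid2 40.1-fold and Col4a1 4.03-fold lower, Col15a1, named after its values were seen, 2.13-fold higher), and 5 were higher and 1 lower in matrix fibroblast-like than in myofibroblast-like cells. All genes gave 10.1% higher and 11.2% lower in the first of these pairs, and 9.86% and 13.9% in the second. Of the 6 ligands other than laminins, 4 were higher and 1 lower in that last pair, with Vcam1 55.1-fold higher, and 3 of 4 tested were lower in NB-like than in qNSC-like cells, where 23.9% of all genes were. Of the 8 integrin genes outside the rule for members, such as those of other white blood cell chains, at most 3 could be tested in any comparison. The most called were 2 of 2, both higher in matrix fibroblast-like than in myofibroblast-like cells (Itga2b 2.74-fold and Itgbl1 at least 26.4-fold), where 9.86% of all genes were.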

How the data were processed

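GFP+ cells of 1 brain and 1 lung preparation were sequenced with 3′ droplet libraries. The authors deposited whole-number UMI counts per gene and cell, which the labels and methods say were made with bcl2fastq 2.19.1.403, UMI-tools, STAR 2.7.1a and Subread featureCounts 1.6.4 on mm10; the annotation, the strand setting and the rule for barcodes are not given in the sources used here. Reads of overlapping genes can therefore be shared: 9 members share exon bases with another gene (34.5% for Itga10, at most 8.41% for the others).

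The filter on cells followed the study's methods (over 200 and under 4000 genes, less than 40% mitochondrial counts), and cells were then gated on marker lists. The study's maps of these libraries show as many cells as there are deposited barcodes (4640 and 5981), of which 4151 and 5608 passed here, so the cells analysed are fewer than those shown there. No doublets were removed in the main analysis; Scrublet called 1.06% of brain and 1.23% of lung cells, and leaving them out was an alternative. Counts were summed per class. With 1 library a tissue, no test between groups was possible, and ratios carry exact conditional intervals for counting error only, in code tested on simulated data. Members that reached 50 CPM in a class of at least 30 cells are named with values, and called genes of the other lists could be named, at most 4 a list and comparison, the largest folds first. The values of 1 member are not reported here and it was left out of the figures, though counts over members and shares of a chain family include it. The members, markers and lists were chosen with earlier results of these data known. Alternatives were other filters on cells, other gates, doublets removed, Leiden clusters (resolution 1.0, 20 components, 15 neighbours, 2000 variable genes without the members), the mean of single-cell CPM, the median of ratios, other minimums and folds, and 10% free RNA removed. The 10% was a fixed setting that was not estimated from the data, and it may exceed the free RNA present. Where it left no UMI, all counts of the gene in the class were taken off, so these bounds depend on that setting. Python 3.11.15 was used with numpy 2.4.6, scipy 1.17.1, pandas 2.3.3, scanpy 1.11.5, leidenalg 0.10.2 and matplotlib 3.10.9.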

Additional observations from a re-analysis of the deposited data

How the results depend on the processing

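The count of called members was recomputed in each of the 11 comparisons under 12 alternatives. In 129 of 132 cases it stayed within 1.5 times the reported count. The 3 others asked for a fold of 3 and gave 8 members for myofibroblast-like over pericyte-like, 6 for matrix fibroblast-like over myofibroblast-like and 3 for mOL-like over OPC-like cells, where fewer genes can pass by construction. For 109 named ratios the alternatives gave 1304 values, 70 of them bounds with no UMI in 1 class. A fold of 3, a minimum of 50 UMIs and no minimum of UMIs change only the rule for calls. Under them no ratio moves, so its direction is kept by construction, and no minimum of UMIs cannot end a call. Of the 1304 values, 1232 kept their direction and call, 71 kept the direction and lost the call (26 of them under a fold of 3 and 12 under a minimum of 50 UMIs), and 1 turned round, that of Lamb1 in lung over brain endothelial-like cells, at 0.913 after 10% of counts had been removed as free RNA. For it the cause was not tested. That removal gave no value for Itgb5 and Lama2 in the same pair and for Itga4 and Itga6 in matrix fibroblast-like over myofibroblast-like cells, as it left no UMI in either class. A move of over 1.5 times was seen in 101 of the 1304 values, 45 of them under that alternative and 18 with classes from clusters. No paired analysis was possible because each tissue had 1 library and the result comes from no test. In the 2 smallest classes compared, with 31 and 34 cells, a count of 0 UMIs allows up to 16.8 and 16.9 CPM, which limits what low levels there can show.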

Other observations

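Outside the compared classes, members of white blood cells, epithelium and ependyma were read as well. Brain microglia-like cells (37 cells) had 185 CPM (122 to 269) and lung T cell-like cells (109 cells) 147 CPM (108 to 194) of Itgb2, the beta chain of white blood cells, 2 overlapping levels, and 14 of the 18 classes had no UMI of it. Itga4 stood at 65.8 CPM in the T cell-like cells. In the 32 lung epithelial-like cells Lama3 made up 70.5% of the alpha chain UMIs of laminin. Brain ependymal-like cells (104 cells) had 56.6 CPM (40.2 to 77.3) of Itgb4 and 82.7 CPM of Itgb8, and their cells had a median of 9 ependymal and 5 qNSC markers.

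The cells that passed no gate, 298 in brain and 969 in lung, carried 525 and 2396 CPM of all members. In the ungated lung cells Itga9 was at 181 CPM (170.3 to 193), below the lung myofibroblast-like class (271 CPM). The next lung class, smooth muscle-like, had 118 CPM, and its interval overlapped that of the ungated cells.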
